A study of Drosophila melanogaster with 2 samples.

Results

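The pair-rule genes of Drosophila melanogaster divide the early embryo into segments. Those described here are hairy (h), even skipped (eve), runt (run), fushi tarazu (ftz), odd skipped (odd), paired (prd), odd paired (opa), sloppy paired 1 (slp1) and sloppy paired 2 (slp2). They were chosen by name, as the 9 rows with exactly these symbols among the 15627 genes of a table of chromatin immunoprecipitation (ChIP) and input signal. The ChIP library was made with an antibody against dBigH1, a variant of the linker histone H1 found in chromatin of early embryos and of the germ line. The input library was DNA of the same stage sequenced with no antibody. Each group was 1 library from whole w1118 embryos (a white-eyed laboratory stock) collected 0 to 2 h after fertilization, and the labels do not say whether both libraries came from 1 collection. No mutant, transgene or treatment is named in the labels for either group.

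Pair-rule genes code for transcription factors and sit in the middle of the segmentation cascade. Maternal and gap factors set them, they regulate each other, and they pass the pattern on to the segment polarity genes. Most are transcribed in stripes along the embryo, and their transcription begins while the nuclei still share a common cytoplasm. By their place in the network they are usually split into a primary tier (h, eve, run, ftz and odd), which receives most of the gap input, and a secondary tier (prd, opa, slp1 and slp2), which acts slightly later. Many of the enhancers that place the stripes lie outside the transcribed gene.

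With 1 library per group, differences between ChIP and input were not checked against replicates, and p-values were not computed. The values were scaled to 8803832 reads in the ChIP library and 6272887 in the input library, and the median gene had 98 and 74 reads. Every value covers a whole gene, introns included and flanking DNA left out, on the dm3 build. The levels are RPKM, reads per kilobase of gene, scaled to the depth of the library. Each 95% interval is exact for independent reads of that gene and covers counting error only, not differences between replicates. PCR copies are not independent molecules, so the intervals are too narrow if such copies were counted. The value of a gene is an average over all nuclei of the collection, so less dBigH1 in every nucleus and none in some nuclei cannot be told apart. The stage in the labels cannot be checked from libraries of genomic DNA.

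Among the primary genes, dBigH1 ChIP signal was below input signal in each of the 5. The intervals of the libraries did not overlap in h, odd and ftz, and they overlapped in eve and run. The homeobox gene eve lies on 2R from 5866824 to 5868300, a span of 1477 bp. It had 3.15 RPKM in the ChIP (41 reads, interval 2.26 to 4.28) and 5.40 RPKM in the input (50 reads, interval 4.01 to 7.11). This was the lowest ChIP level of the 9 genes, and only 2.83% of all genes had a lower one, while its input level exceeded that of 23.7% of genes. The other homeobox gene, ftz, lies on 3R from 2690046 to 2691950 and spans 1905 bp. It had 3.94 RPKM in the ChIP (66 reads, interval 3.04 to 5.01) and 6.36 RPKM in the input (76 reads, interval 5.01 to 7.96), a ChIP level above 7.46% of genes and an input level above 46.0% of genes. For ftz the input was therefore near the middle of all genes and the ChIP near the bottom. Its intervals only just failed to overlap, the ChIP ending at 5.007 RPKM and the input starting at 5.011 RPKM.

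The gene h codes for a basic helix-loop-helix repressor and lies on 3L from 8668859 to 8672353, a span of 3495 bp. It had 5.23 RPKM in the ChIP (161 reads, interval 4.46 to 6.11) and 7.98 RPKM in the input (175 reads, interval 6.84 to 9.26). The zinc finger gene odd lies on 2L from 3604222 to 3606748, on the minus strand, and spans 2527 bp. It had 4.90 RPKM in the ChIP (109 reads, interval 4.02 to 5.91) and 7.89 RPKM in the input (125 reads, interval 6.56 to 9.40). In h and odd, as narrowly in ftz, the intervals of the libraries did not overlap. Their input levels were high, above 81.2% and 79.8% of genes, and their ChIP levels low, above 24.5% and 18.9% of genes.

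The gene run is the founding member of the Runt family of transcription factors and the X-linked member of the set, at X from 20565468 to 20568348 (2881 bp). It had 3.94 RPKM in the ChIP (100 reads, interval 3.21 to 4.80) and 4.87 RPKM in the input (88 reads, interval 3.91 to 5.999). Both levels were low among all genes, above 7.50% of them in the ChIP and 14.7% in the input, and the intervals of the libraries overlapped.

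The secondary genes were more mixed. The gene opa codes for a zinc finger factor of the Zic family and spans 17175 bp on 3R from 678535 to 695709, which made it the longest of the 9 and the one with the most reads. It had 6.18 RPKM in the ChIP (935 reads, interval 5.79 to 6.59) and 8.05 RPKM in the input (867 reads, interval 7.52 to 8.60), and these intervals did not overlap. The forkhead genes slp1 and slp2 are neighbouring duplicates on 2L. The first, slp1, from 3825680 to 3827137 (1458 bp), had 5.61 RPKM in the ChIP (72 reads, interval 4.39 to 7.06). Its input level, 8.42 RPKM (77 reads, interval 6.64 to 10.5), was the highest of the 9, but that interval held the input levels of h, odd, opa and slp2. The second, slp2, from 3836842 to 3839201 (2360 bp), had 6.59 RPKM in the ChIP (137 reads, interval 5.54 to 7.79). Its input level was 7.57 RPKM (112 reads, interval 6.23 to 9.10). In slp1 and slp2 the intervals of the libraries overlapped.

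The ChIP level of slp2 was the highest of the 9 and the only one above the median of all genes, 6.38 RPKM. The gene prd codes for a factor with a paired domain and a homeodomain and lies on 2L from 12082997 to 12085792, on the minus strand (2796 bp). It had 5.20 RPKM in the ChIP (128 reads, interval 4.34 to 6.18) and 5.47 RPKM in the input (96 reads, interval 4.43 to 6.68). The libraries were nearly level over prd, and both values were below the medians of all genes, which were 6.38 RPKM in the ChIP and 6.51 RPKM in the input.

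**Figure D1:**
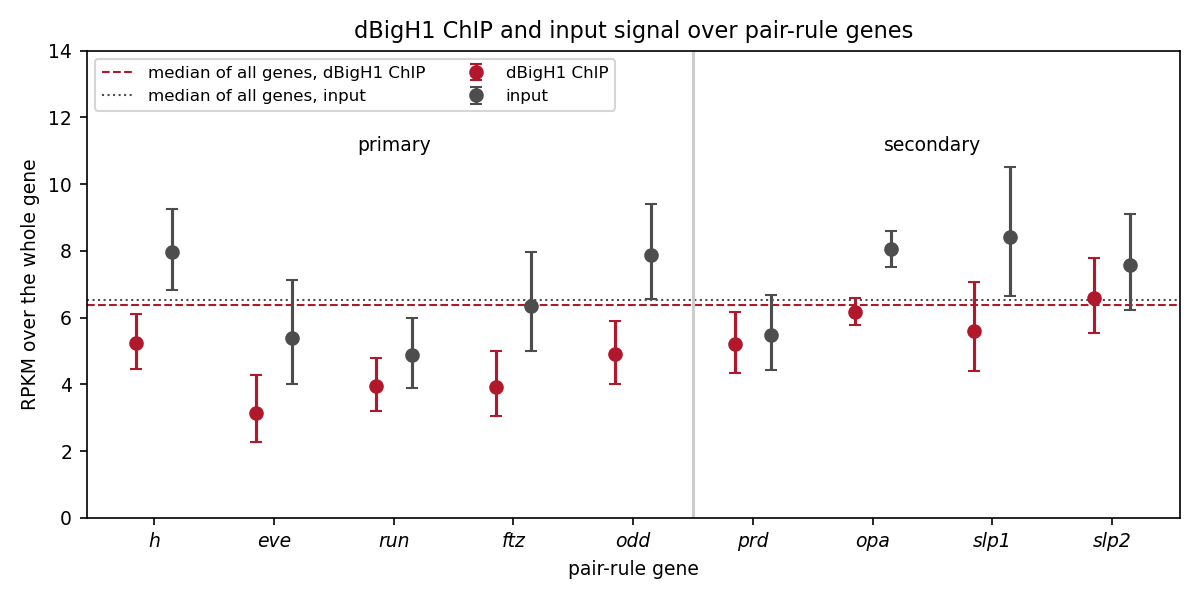
RPKM over each pair-rule gene in the dBigH1 ChIP library (red, left) and the input library (grey, right), with exact 95% counting intervals; dashed and dotted lines mark the medians of all genes. The red point is below the grey one for all 9 genes, with a wide gap for h and odd (5.23 against 7.98 RPKM and 4.90 against 7.89 RPKM) and almost none for prd (5.20 against 5.47 RPKM).

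Set as a ratio, log2((ChIP RPKM + 1)/(input RPKM + 1)), the order of the genes ran eve (-0.62), odd (-0.59), ftz (-0.58), h (-0.53), slp1 (-0.51), opa (-0.33), run (-0.25), slp2 (-0.17) and prd (-0.06). Adding 1 RPKM understates ratios where levels are low; without it, ChIP over input was 0.584-fold in eve, 0.768-fold in opa and 0.872-fold in slp2. The median of the 9 was -0.51, against -0.04 over all genes, and with no RPKM added it was -0.59, against -0.05 over all genes. Their reads pooled, also with none added, gave -0.42 (interval -0.52 to -0.32, 1749 ChIP and 1666 input reads). Of the ChIP reads, 935 were from opa, and without it the pooled ratio was -0.46 (-0.60 to -0.32).

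Of the 9 genes, 6 had a ratio at or below 0.8-fold (a log2 ratio of -0.32), as did 17.0% of all genes. The 6 were eve, odd, ftz, h, slp1 and opa. The member just inside that limit was opa and the one just outside was run. At a stricter limit of 2/3 there were 2 (eve and odd), beside 5.22% of all genes. That count depended on the 1 RPKM added: without it 5 genes (eve, ftz, odd, h and slp1) were at or below 2/3, beside 7.40% of all genes. None of the 9 was at or above 1.25-fold, as were 10.3% of all genes. The same 6 had intervals wholly below the median ratio of all genes, which 9.59% of genes had, and none had an interval above it, which 10.6% had. Members had from 50 to 867 input reads and from 1458 to 17175 bp. Among the 9172 genes with input reads in that range, 15.8% were at or below 0.8-fold and 13.0% had an interval below the median. Among the 8101 genes with a width in that range, the shares were 13.2% and 12.4%.

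**Figure D2:**
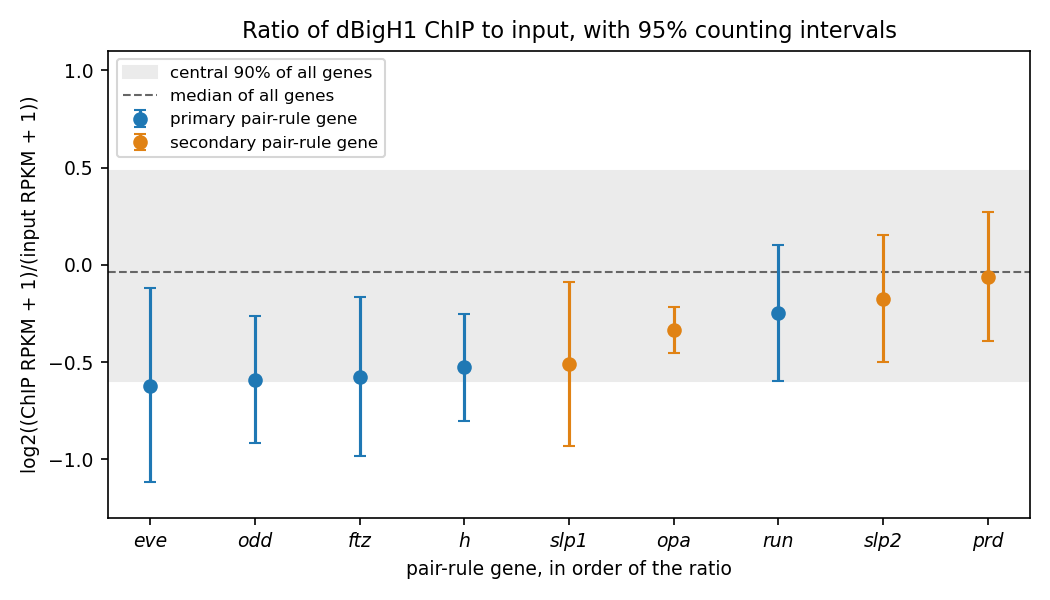
Log2 ratio of dBigH1 ChIP to input for each pair-rule gene, in order, with 95% counting intervals; blue marks primary and orange secondary genes, the dashed line the median of all genes (-0.04) and the grey band their central 90% (-0.60 to 0.48). All 9 points are below the dashed line, from eve at -0.62 to prd at -0.06, and the intervals of run, slp2 and prd cross it.

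By tier, the 5 primary genes had a median log2 ratio of -0.58 with 1 RPKM added and pooled reads at -0.60 with none added (-0.78 to -0.41). On the same scales, the 4 secondary genes had a median of -0.25 and pooled reads at -0.35 (-0.46 to -0.23). Of these pooled reads, opa alone gave 935 of 1272 in the ChIP and 867 of 1152 in the input. The pooled secondary value is therefore mostly that of opa. The tiers overlapped, since slp1 lay below run. The SD of the 9 ratios, with no RPKM added, was 0.25, against 0.21 from counting error alone, so most of the spread between these genes was of the size that their read numbers give. Of the 36 pairs of genes, 2 differed with an interval that left out 0, with no adjustment for the number of pairs. These were odd minus prd (-0.61, interval -1.17 to -0.06) and h minus prd (-0.53, -1.05 to -0.02). The difference between the extremes, eve minus prd, was -0.70 with an interval of -1.45 to 0.05. Neighbours in the order from eve to prd could not be told apart at this depth.

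Over the 9 genes, whether or not the ratio was at or below 0.8-fold, a low ChIP level was more frequent than a high input level. ChIP RPKM was below its median in 8 of the 9 genes, and input RPKM was above its median in 5 (h, odd, opa, slp1 and slp2). By the definition of a median, as many of all genes lie above it as below it, so the count for the input was near the share of all genes. In eve, run, ftz and prd both levels were below their medians. A ChIP level below and an input level above the median were found together in 4 genes (h, odd, opa and slp1), as in 15.2% of all genes. The ratio has the input in its denominator, and over all genes its median ran from 0.15 in the decile of genes with the lowest input RPKM to -0.34 in the decile with the highest. Each gene was therefore also set against its own decile. Of the genes with input like that of eve, 1.47% had a lower ratio than eve, and the same share was 1.92% for ftz, 3.78% for odd, 8.66% for h and 9.36% for slp1. It was 15.0% for run, 24.4% for opa, 33.2% for prd and 38.1% for slp2. All 9 lay below the median of their decile, by a median of -0.35.

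Since run is X-linked, its ratio was also read against its own chromosome. The median log2 ratio was -0.14 over 2382 genes of the X, and run differed from it by -0.11. The other 8 genes lie on arms with medians from -0.04 (2R) to -0.01 (2L), and their differences from these ran from -0.58 for eve to -0.05 for prd. The count of members with an interval below the centre stayed at 6 when the median of their own arm was the centre.

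The genes around the pair-rule genes were mostly closer to the genome as a whole. Genes within 25 kb that did not overlap a member numbered 38, members left out. Their median log2 ratio was -0.12, and 7 of them (18.4%) were at or below 0.8-fold, close to the 17.0% of all genes. A pair-rule gene lay below the median of its own neighbours in 7 of 9 cases, by a median of -0.38 over the 9. For h and ftz those neighbours were a single gene. Within 10 kb, where 6 of the 9 had any neighbour, 4 lay below and the median difference was -0.13. With the genome-wide median in place of the neighbours, all 9 were lower and the median difference was larger, at -0.47. Genes that are low against the genome can thus be low against their neighbours too. The comparison with neighbours was not made for other genes, so whether the contrast is particular to these loci was not tested. The nearest gene that did not overlap lay between 5.36 and 39.7 kb away on each side.

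At the eve locus some of the genes next to eve were also low. An unnamed gene on the opposite strand, FBgn0264599, overlapped eve by 266 bp and had a log2 ratio of -0.61 (115 ChIP and 134 input reads). The sources used here do not say whether reads in the overlap were counted for both genes. CG12134, the nearest gene upstream at 6.54 kb, had -0.49 (-0.89 to -0.09), and Adam, another gene on that side, had -0.56. Adam is named because it had the lowest ratio of the 9 neighbours, a choice made after its value was seen. Farther upstream, CG12133 had -0.08, CG1418 -0.13 and Mef2 0.09. Downstream at 8.36 kb, TER94, the gene of an ATPase that extracts proteins for degradation, had -0.22, and beyond it Pka-R2 had 0.08. The median of the 9 neighbours was -0.16. None of them was below eve, and 6 had an interval wholly above the value of eve. That count leaves out the counting error of eve itself. The interval of eve, -1.12 to -0.12, held the median of the 9 neighbours.

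At the other primary loci the nearest genes lay closer to the median of all genes than the pair-rule gene did. The gene ftz lies inside the Antennapedia complex between the Hox genes Scr, 14.3 kb upstream, and Antp, 30.0 kb downstream. Scr had a log2 ratio of -0.02 (-0.11 to 0.08, 1714 ChIP and 1239 input reads) and Antp -0.13 (-0.17 to -0.08), against -0.58 (-0.98 to -0.16) for ftz. The interval of ftz lay below that of Scr, so the low value was not shared with that neighbour as a whole gene. The nearest genes to h were CG6486, the peroxin 7 gene, 24.7 kb upstream (0.14, -0.12 to 0.39), and SrpRbeta, 39.7 kb downstream (0.06).

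For odd the nearest genes were Dot, 12.4 kb upstream (-0.22), and the unnamed FBgn0264371, 13.9 kb downstream (-0.03). The nearest to run were the unnamed FBgn0264444, 6.79 kb upstream (-0.12), and CG1324, 37.4 kb downstream (-0.24). The value of run, -0.25, was within the intervals of both of its nearest genes.

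Among the secondary genes, opa differed most from its surroundings, and the value of prd was above the median of its own. Downstream of opa at 6.02 kb, laf had 9.52 RPKM in the ChIP (212 reads) and 6.49 RPKM in the input (103 reads), a log2 ratio of 0.49 (0.18 to 0.80), against -0.33 (-0.45 to -0.21) over opa. Upstream at 21.5 kb, CG14659 had 0.73 from 40 ChIP and 16 input reads. The genes around prd were themselves low, with a median of -0.26 over 12 genes, 9 of which lay below prd. The interval of prd, -0.39 to 0.27, held that median. CG5325, the peroxin 19 gene 7.98 kb upstream of prd, had 3.84 RPKM in the ChIP (50 reads) and 7.43 RPKM in the input (69 reads), a log2 ratio of -0.80 (-1.25 to -0.34). On the other side of prd at 5.36 kb, CG14947 had -0.27.

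The duplicates slp1 and slp2 stand 9.71 kb apart, so each is the other's nearest gene on that side. Upstream of slp1 at 12.3 kb, CG3407 had -0.22, and downstream of slp2 at 23.5 kb, CG3964 had -0.11. With each of the duplicates left out as a neighbour of the other, the median difference over the 9 genes was -0.38. The value of slp2, -0.17, then lay between those of CG3407 and CG3964, its remaining neighbours within 25 kb.

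**Figure D3:**
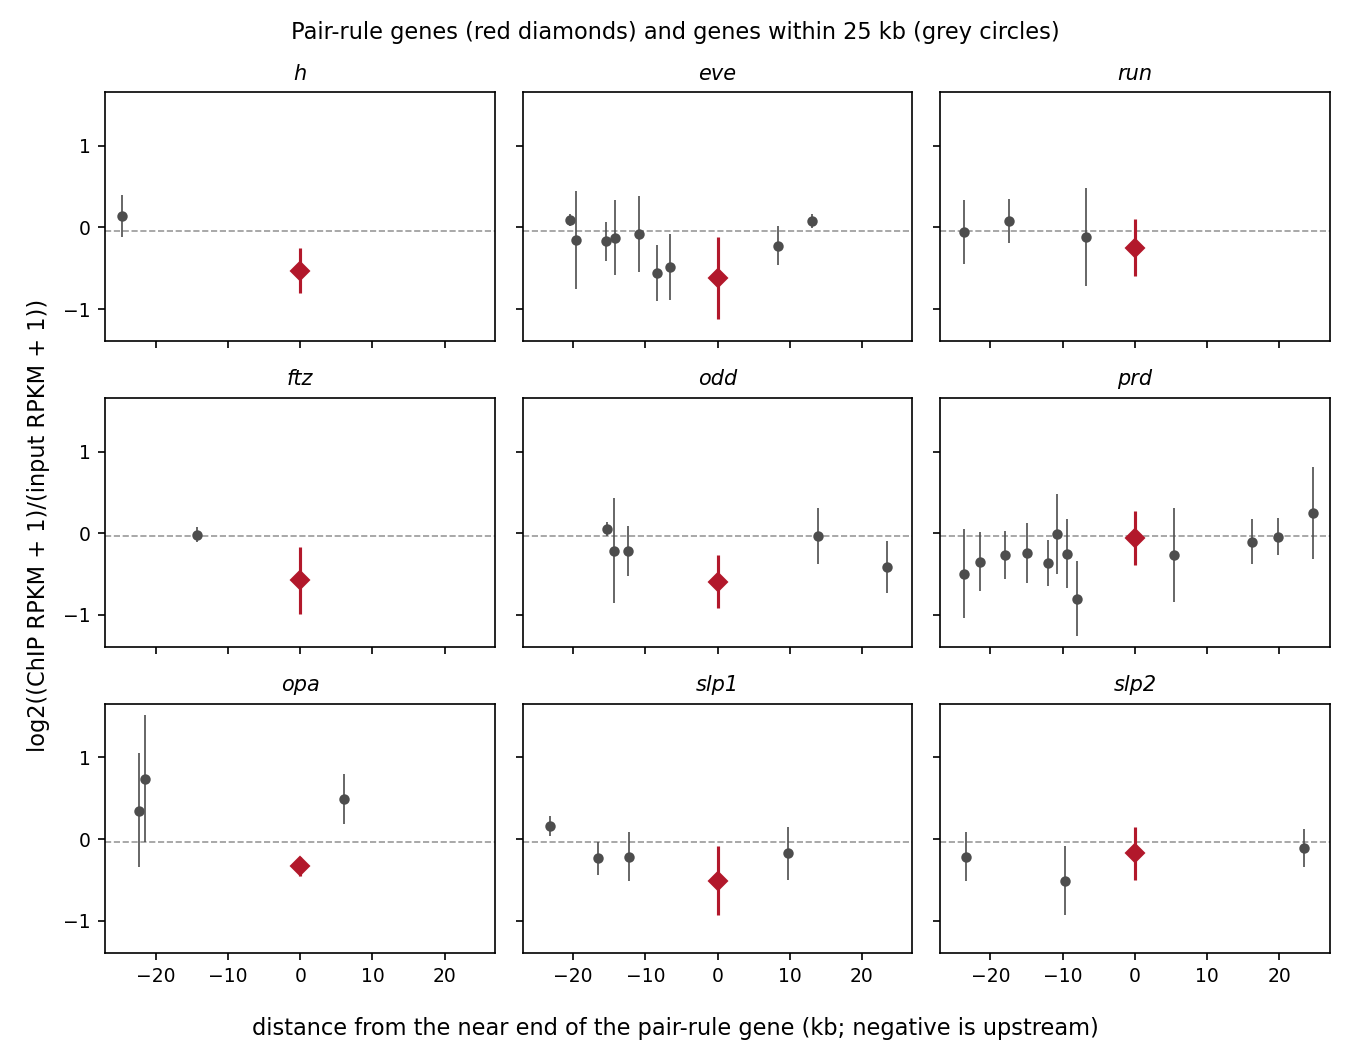
Log2 ratio of dBigH1 ChIP to input for each pair-rule gene (red diamond) and the genes within 25 kb that do not overlap it (grey circles), by distance from the near end of the pair-rule gene, with 95% counting intervals; the dashed line is the median of all genes (-0.04). The diamond is the lowest point in the panels of h, eve, run, ftz, odd, opa and slp1, and lies among or above its neighbours for prd and slp2.

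Each pair-rule gene was next set beside relatives that code for the same class of protein. Across 37 pairs of a pair-rule gene and a relative that is not one, the pair-rule gene was lower in 30, with an interval below 0 in 11 and above 0 in none. The pairs share genes and are not independent. Of all genes, from 4.41% (eve) to 46.8% (prd) had a lower ratio than the member, so each member was lower than most genes of any kind. No such count was made with other genes in place of the relatives, and these counts do not set the relatives apart from other genes. The homeobox relatives gave the clearest gaps. The difference of eve from Scr was -0.75 (-1.40 to -0.12) and that of ftz from Dfd -0.62 (-1.15 to -0.10), whereas zen, a dorsal patterning gene that is itself active in the early embryo, had -0.31 and differed from ftz with an interval that held 0 (ftz minus zen -0.34, -1.05 to 0.36). The Hox genes Scr, Antp and Dfd span from 10596 to 102976 bp and ftz 1905 bp, so the Hox values average over longer spans.

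The odd family lies in part in the same region of 2L, and sob and drm stand 23.5 and 56.1 kb from odd. The log2 ratio was -0.59 in odd, -0.42 in sob (-0.74 to -0.10), -0.24 in drm (-0.40 to -0.08) and -0.15 in bowl. The difference from bowl, -0.52 (-0.94 to -0.11), left out 0, and those from sob (-0.20, -0.74 to 0.34) and drm (-0.42, -0.84 to 0.01) did not. By its interval sob, which like odd codes for a zinc finger protein, was also below the genome-wide median.

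Between the duplicates, slp1 minus slp2 was -0.39 with an interval of -1.004 to 0.23. For slp1 the differences from the forkhead genes croc (-0.77, -1.47 to -0.08) and fd64A (-0.74, -1.38 to -0.11) left out 0. The remaining forkhead genes fd59A (-0.37), fd96Ca (-0.39), fd96Cb (-0.40), fkh (-0.33) and bin (-0.26) were themselves low, and the intervals of their differences from slp1 and from slp2 all held 0. In the paired family, gsb (-0.11), gsb-n (0.05), Poxm (0.03) and Poxn (0.04) were near the median of all genes, as was prd.

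The other relatives were those of h, run and opa. The repressor gene dpn had -0.31 and Hey -0.09, and the difference of h from Hey was -0.50 (-0.98 to -0.01). All 3 relatives of run are X-linked, with lz at -0.08, RunxB at -0.10 and RunxA at 0.10, and no difference from run left out 0. Of the zinc finger relatives of opa, lmd had 0.02, ci, the effector of Hedgehog signalling, -0.18 and sug -0.41, and opa was lower than lmd (-0.40, -0.72 to -0.08).

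In the network around the pair-rule genes, low ratios were most frequent, of the 4 lists examined, among their inputs. Of 11 input genes, 6 were at or below 0.8-fold, beside 17.0% of all genes, and 7 were below the genome-wide median by their intervals, beside 9.59%. Their median was -0.33. The lowest was the terminal gap gene tll, with 6.01 RPKM in the ChIP (109 reads) and 9.52 RPKM in the input (123 reads), a log2 ratio of -0.59 (-0.92 to -0.25). It was level with D, the gene of the Sox factor Dichaete (-0.59). The highest was the gap gene Kr (-0.01, -0.23 to 0.22). The gene vfl, which codes for Zelda, the activator of the early zygotic genome, had -0.33 (-0.47 to -0.20), the same as opa to 2 decimals.

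The 12 targets had a median of -0.14, with 2 at or below 0.8-fold, beside 17.0% of all genes, and 5 below the genome-wide median by their intervals, beside 9.59%. The lowest was ptc, the Hedgehog receptor gene (-0.51, -0.63 to -0.39), and the other at or below 0.8-fold was 18w (-0.38, -0.62 to -0.14), a Toll receptor gene transcribed in stripes under pair-rule control. The highest was gsb-n (0.05, -0.09 to 0.18). The segment polarity genes wg, a secreted signal, and hh, the Hedgehog ligand, had -0.21 and -0.22, and both intervals were below the median of all genes.

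The 7 cofactors, most of them expressed in many tissues, had a median of -0.06, with 2 at or below 0.8-fold, beside the same 17.0%. These were the histone deacetylase gene Rpd3, the lowest (-0.36, -0.66 to -0.05), and the corepressor gene CtBP (-0.34, -0.46 to -0.22). The corepressor gene gro (-0.05) and the nuclear receptor gene ftz-f1 (-0.06, -0.13 to 0.01), whose product binds Ftz, were near the median of all genes, and lilli was highest (-0.01). The 26 relatives, 2 of which are also targets, had a median of -0.12, with 6 at or below 0.8-fold (17.0% of all genes), 7 below the genome-wide median by their intervals (9.59% of all genes) and 1 above it (10.6%).

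**Figure D4:**
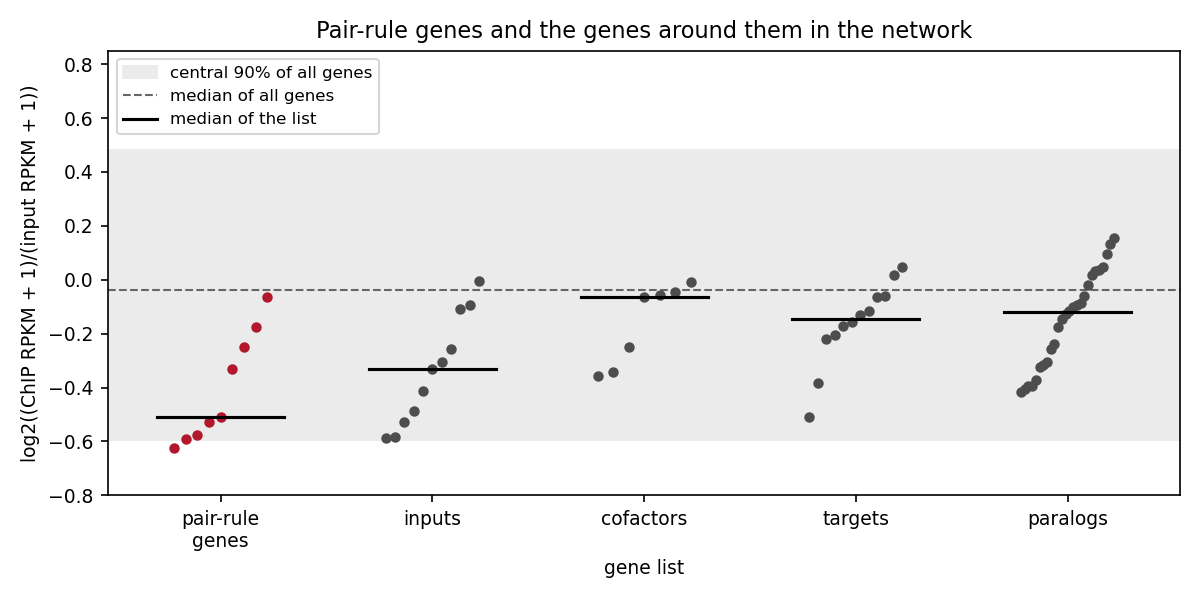
Log2 ratio of dBigH1 ChIP to input for the pair-rule genes (red) and for lists of their inputs, cofactors, targets and paralogs (grey), each point a gene, with a black bar at the list's median; the dashed line is the median of all genes and the grey band their central 90%. The medians are -0.51 for the 9 pair-rule genes, -0.33 for 11 inputs, -0.06 for 7 cofactors, -0.14 for 12 targets and -0.12 for 26 paralogs.

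On the score in the authors' deposited table, which sets ChIP against input on another scale, all 9 genes were below 0. The median score of all genes was 0.02, so a score below 0 was common. Among the 9, the score was lowest in odd (-1.87), below which lay 2.96% of all genes. It was highest in prd (-0.04), below which lay 47.0%. By this score h (-1.70) and slp1 (-1.66) came before ftz (-1.41) and eve (-1.25).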

How the data were processed

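One dBigH1 ChIP library and 1 input library were analysed. Per the labels' protocols, DNA input was 3.5 ng, fragments were selected at 300 to 350 bp, PCR ran for 18 cycles and single reads were 50 nt long. Bowtie2, CASAVA 1.9, R 2.15, FastQC 0.10 and build dm3 are listed without roles, per the submitters' processing notes. The sources used here do not give the counter, the gene annotation or the treatment of duplicate reads and of overlapping genes.

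Per the file headers, the authors deposited log2 RPKM per gene and a MAnorm score. As the values show, the log2 columns are log2(RPKM + 1) with whole-gene width: 100% of values gave whole reads within 1e-05 reads. The score was used only as an alternative. Of all genes, 6566 (42.0%) overlap another gene.

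Libraries were not normalized further before the ratio log2((ChIP RPKM + 1)/(input RPKM + 1)) was taken. Intervals are exact Clopper-Pearson intervals of the ChIP share of a gene's reads, on that scale. Intervals of levels are exact Poisson intervals. Differences between genes are conditional odds ratios of reads with no RPKM added. With 1 library per group there was no test. Called genes were those at or below 0.8-fold. The pair-rule genes and the lists were chosen with earlier results of these data known. Of all lists, every gene was found by its symbol. Named genes are all members, the nearest and overlapping genes, the paralogs, and the lowest and highest of each list; further genes (D, vfl, 18w, wg, hh, CtBP, gro, ftz-f1, Adam, CG12133, CG1418, Mef2, Pka-R2) were named after their values were seen. Promoter motifs were not analysed here. The procedure was tested on simulated data. Tools were Python 3.11.15, scipy 1.17.1, numpy 2.4.6, statsmodels 0.14.6, pandas 2.3.3 and matplotlib 3.10.9.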

Additional observations from a re-analysis of the deposited data

How the results depend on the processing

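The results were recomputed with 0, 0.1 or 5 RPKM added, with centring on all genes or on the chromosome arm, a lowess correction (span 0.3), the deposited score, other thresholds, backgrounds and windows, and, chosen after seeing the data, leaving members out as neighbours and centring on deciles of input RPKM (members' median -0.35). No result changed sign under those run. For part of them this could not happen: another pseudocount cannot change the sign of a gene's ratio, and counts and shares have no sign. Across the pseudocounts, centring and lowess, eve ranged from -0.78 to -0.35, opa from -0.38 to -0.22 and prd from -0.07 to -0.01. The number of members at or below 0.8-fold was 5 with a pseudocount of 5 RPKM (7.39% of all genes), with centring on all genes (14.2%) or on the arm (13.9%) and with lowess (13.6%). It was 2 at a threshold of 2/3 (5.22% of all genes), and 5 at that threshold with no RPKM added (7.40%), an alternative chosen after seeing the data. On the score in the authors' deposited table, which has another scale, the members' median was -1.25. The median difference from neighbours was -0.13 within 10 kb, where 6 members had a neighbour and 4 lay below, and -0.38 within 50 kb, where 8 of 9 lay below. Fewer neighbours enter at 10 kb. Motif searches in promoters were not run. No replicate could be left out, and no paired analysis was possible because each group had 1 library. Depth limits single genes: 41 to 161 ChIP reads in the primary genes gave intervals too wide to order them.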
